A study of Mus musculus with 3 samples.

Results

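The G1 cyclins, their kinases and the E2F-Rb axis were taken as 10 genes: Ccnd1, Ccnd2, Ccnd3, Ccne1, Ccne2, Cdk2, Cdk4, Cdk6, E2f1 and Rb1. Members were the rows of the deposited table whose platform annotation gave one of these symbols, which found 13 of 41345 probe sets. Of these, 10 carried 1 symbol and gave values for 9 of the 10 genes, among 22180 named genes in all. Ccne2 had only a probe set annotated to Ints8 as well, and 2 further Rb1 probe sets were also annotated to Lpar6, a gene that lies inside Rb1. These 3 shared probe sets were kept out of the gene values.

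RNA was measured on 3 mouse whole-transcript arrays, 1 per group. FULA 1 is a mouse lung adenocarcinoma line, grown in DMEM with 10% fetal bovine serum. Of the lungs, both from FVB mice, an inbred strain, one was taken 1 week after an intraperitoneal injection of urethane, a carcinogen that induces lung tumours in mice, and the other after saline. The age and number of the mice and the time of the saline lung were not given in the sources used here. With no replicates no test was possible, so each difference compares these arrays and not the conditions, and none could be set against a replicate spread.

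Passage from G1 into S phase is set by cyclins and the kinases they activate. D-type cyclins (Ccnd1, Ccnd2, Ccnd3) bind Cdk4 or Cdk6 after growth signals, and E-type cyclins (Ccne1, Ccne2) bind Cdk2 later in G1. Both kinds of complex phosphorylate the retinoblastoma protein Rb1, which otherwise holds E2f1 and related transcription factors silent at genes of DNA synthesis. Most cells of an adult lung are out of the cycle, and this axis is often altered in lung adenocarcinoma.

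The deposited columns were on different scales, with medians of 4.96 on FULA 1, 1.22 on the urethane lung and 0.08 on the saline lung (log2). Values below are therefore log2 values after quantile normalization to the mean of the 3 arrays, or percentile ranks among all probe sets of an array, which no such rescaling alters. A gene counted as called when its values differed 2-fold or more (1 in log2 units) and the larger of them reached a floor of 2.37, the median of all gene values. As a mark of background, the 95th percentile of 1105 olfactory receptor genes was 1.96 on FULA 1, 2.44 on the urethane lung and 2.46 on the saline lung. The labels were set against marker lists. Of 9 lung epithelial markers, 6 lay above the mark on FULA 1, none above 3.19, and 9 on each lung, where they reached 11.88 (urethane) and 11.85 (saline). Of 6 leukocyte markers, 0 lay above the mark on FULA 1, 4 on the urethane lung and 4 on the saline lung. Of 5 endothelial markers, 3 did on FULA 1, none above 2.39, and 5 on each lung, and of 5 fibroblast markers 2 did on FULA 1, with Pdgfra the highest at 3.86, and 5 on each lung. All 5 pan-epithelial markers lay above the mark on each array, with 4 called higher and 0 lower on FULA 1 against the saline lung, and 3 higher and 1 lower against the urethane lung. Among them Krt8 was at 10.27 on FULA 1, 5.60 on the urethane lung and 5.43 on the saline lung, and Epcam at 3.31, 4.59 and 3.82 on the same arrays. A culture of one line was thus set against tissue of many cell types. Cell composition, culture and tumour state cannot be told apart in either FULA 1 comparison, and fewer cells of a type cannot be told from less RNA per cell.

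After quantile normalization, each of the 3 kinase genes was higher in FULA 1 than in either lung by 2-fold or more. The D-type cyclins Ccnd2 and Ccnd3 were lower by 2-fold or more and Ccnd1 was not called. Thus 3 of the 9 measured members were called higher in FULA 1 than in the saline lung, against 22.6% of 13590 genes that reached the floor, and 2 of 9 were called lower, against 22.0%. Against the urethane lung the counts were again 3 of 9 higher, with 22.1% of 13264 genes, and 2 of 9 lower, with 19.5%. With 9 members these shares are near those of all genes, and the counts are no result about the members. Both comparisons share the FULA 1 array.

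**Figure D1:**
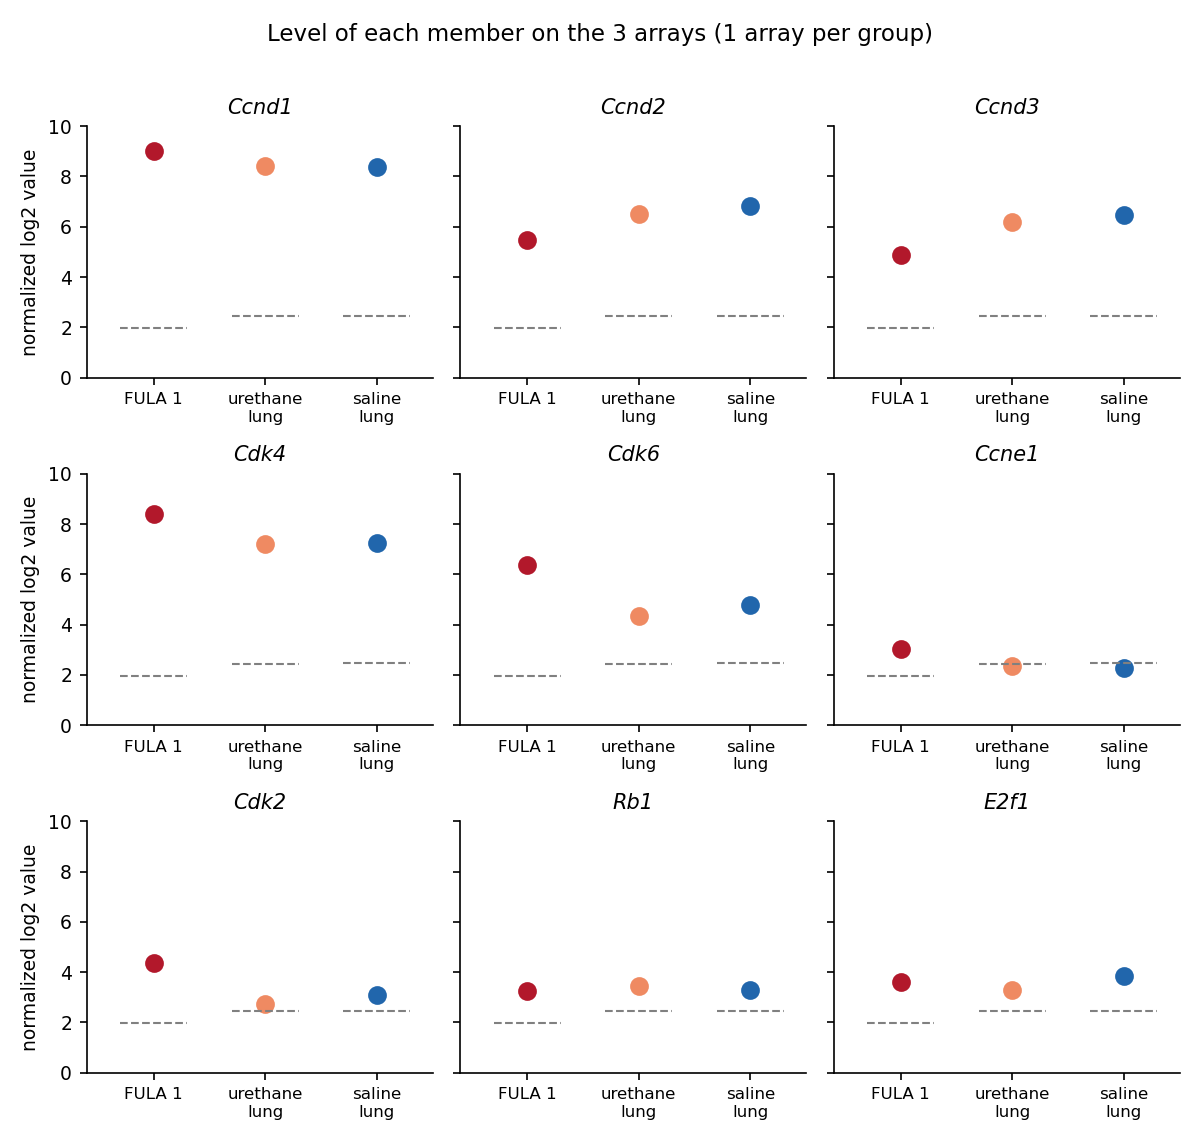
Normalized log2 value of each of the 9 measured members (one panel per gene) on the FULA 1, urethane lung and saline lung arrays; each point is 1 array and each dashed line is the background mark of that array (1.96, 2.44 and 2.46). Cdk4, Cdk6 and Cdk2 are highest on FULA 1, Ccnd2 and Ccnd3 are lowest there, and Ccne1 lies below the mark on both lungs.

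Ccnd1, which encodes cyclin D1, was at 9.02 in FULA 1, 8.43 in the urethane lung and 8.38 in the saline lung. Its percentile ranks were 99.4, 99.1 and 99.0 in the same order of arrays, so it was among the brightest probe sets on each. The difference was 0.64 (log2) from the saline lung and 0.59 from the urethane lung, below the 2-fold rule in both, and its sign turned negative after a lowess curve was subtracted (-0.07 and -0.36). With a common median it was 0.38 from the saline lung and 1.18 from the urethane lung, the latter past 2-fold.

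Ccnd2, which encodes cyclin D2, was at 5.48 in FULA 1, 6.52 in the urethane lung and 6.81 in the saline lung. Both lungs lay above FULA 1, with differences of -1.33 (FULA 1 minus saline lung) and -1.03 (FULA 1 minus urethane lung). Its percentile rank was 92.9 in FULA 1, 96.4 in the urethane lung and 97.1 in the saline lung. Ccnd3, which encodes cyclin D3, was at 4.86 in FULA 1, 6.17 in the urethane lung and 6.46 in the saline lung, with differences of -1.59 and -1.31. Its rank was 89.6 in FULA 1, 95.4 in the urethane lung and 96.2 in the saline lung. With this normalization the differences of the 3 D-type cyclins between these arrays were therefore unequal. The FULA 1 minus saline difference of Ccnd1 exceeded that of Ccnd2 by 1.97 and that of Ccnd3 by 2.23 on the log2 scale. As deposited and with a common median these gaps were smaller, at 0.53 and 0.67, in the same direction. A shift of a whole array cancels in a gap, so these settings agree by construction. With a common median, Ccnd2 and Ccnd3 differed from the saline lung by -0.14 and -0.29, short of 2-fold. On that scale they were not lower than in the urethane lung, at 0.69 and 0.40.

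Cdk4, which encodes a partner kinase of the D-type cyclins, was at 8.38 in FULA 1, 7.21 in the urethane lung and 7.26 in the saline lung. It was 2.18-fold higher in FULA 1 than in the saline lung (1.13 on the log2 scale) and 2.25-fold higher than in the urethane lung (1.17). It sat near the top of every array, with ranks of 99.0 in FULA 1, 97.8 in the urethane lung and 97.9 in the saline lung. It was not called after the lowess step (0.64 and 0.53) or when all arrays were given the distribution of FULA 1 (0.71 and 0.74).

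Cdk6, the other kinase of the D-type cyclins, was at 6.38 in FULA 1, 4.32 in the urethane lung and 4.77 in the saline lung. Its differences of 1.61 and 2.05 correspond to 3.05-fold and 4.15-fold, the highest of the 9 members in both FULA 1 comparisons with this scaling; with the distribution of FULA 1, Cdk2 stood above it (1.63 against 1.44 from the saline lung, 2.19 against 1.91 from the urethane lung). Among all genes that reached the floor these lay at percentiles 89.3 and 94.7. The Cdk6 difference exceeded that of Ccnd2 by 2.94 from the saline lung and 3.09 from the urethane lung. Over the 5 settings of scaling tried, the deposited values among them, these gaps ranged from 2.58 to 3.22 and from 2.75 to 3.09. The deposited values and the common median give the same gaps by construction, so they count as 1 setting here.

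Cdk2, the kinase of the E-type cyclins, was at 4.35 in FULA 1, 2.74 in the urethane lung and 3.09 in the saline lung. It was 2.39-fold higher in FULA 1 than in the saline lung (1.26) and 3.05-fold higher than in the urethane lung (1.61), with ranks of 86.1 in FULA 1, 65.4 in the urethane lung and 71.5 in the saline lung. Its deposited value on the saline lung was shared by 250 probe sets, so that value is coarse, and the difference of 0.84 from the saline lung after lowess was not called.

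The 250 bases before the RefSeq start of the 3 kinase genes (assembly GRCm38.p6) are shown because these were the members called higher in FULA 1. They were searched on both strands for the E2F words TTTCCCGC, TTTGGCGC, TTTCGCGC and TTTGCCGC and for the E-box CACGTG, which Myc and other factors can bind. CACGTG reads the same on both strands and was counted once. Matches are in capitals, and none overlap. Sequences run 5′ to 3′ on the strand of the gene: Cdk2 at chr10:128705052-128705301 (minus strand), Cdk4 at chr10:127063285-127063534 (plus strand) and Cdk6 at chr5:3343643-3343892 (plus strand).
Cdk2: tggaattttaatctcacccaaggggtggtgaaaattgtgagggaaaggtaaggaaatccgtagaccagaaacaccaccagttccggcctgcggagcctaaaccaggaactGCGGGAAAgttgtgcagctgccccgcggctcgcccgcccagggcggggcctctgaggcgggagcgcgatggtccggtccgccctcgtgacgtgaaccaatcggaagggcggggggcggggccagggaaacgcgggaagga
Cdk4: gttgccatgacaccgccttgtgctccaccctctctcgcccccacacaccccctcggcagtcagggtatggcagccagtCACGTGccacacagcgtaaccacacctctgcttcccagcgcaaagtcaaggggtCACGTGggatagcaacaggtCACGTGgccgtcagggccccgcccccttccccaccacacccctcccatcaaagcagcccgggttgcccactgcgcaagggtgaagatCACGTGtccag
Cdk6: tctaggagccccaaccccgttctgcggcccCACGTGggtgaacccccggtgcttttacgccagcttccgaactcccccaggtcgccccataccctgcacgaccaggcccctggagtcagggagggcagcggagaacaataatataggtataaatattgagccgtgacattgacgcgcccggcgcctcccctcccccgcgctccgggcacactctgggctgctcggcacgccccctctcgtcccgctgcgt

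The Cdk4 window held 4 copies of CACGTG, the Cdk6 window 1 and the Cdk2 window 0, while the Cdk2 window held 1 E2F word, on the reverse strand. Of 32851 windows of the same length over all genes, 6.02% held at least 1 CACGTG, 0.0213% (7 windows) held at least 4, and 1.86% held at least 1 E2F word. The table had windows for 6 of the 10 members. Those of Ccnd3 (a pair of starts), Ccne1 and E2f1 held neither. A match describes letters and does not show binding. Myc itself, a transcription factor that drives growth genes, was at 5.96 in FULA 1, 2.95 in the urethane lung and 2.62 in the saline lung. A link between Myc and the levels of the kinase genes was not tested.

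**Figure D2:**
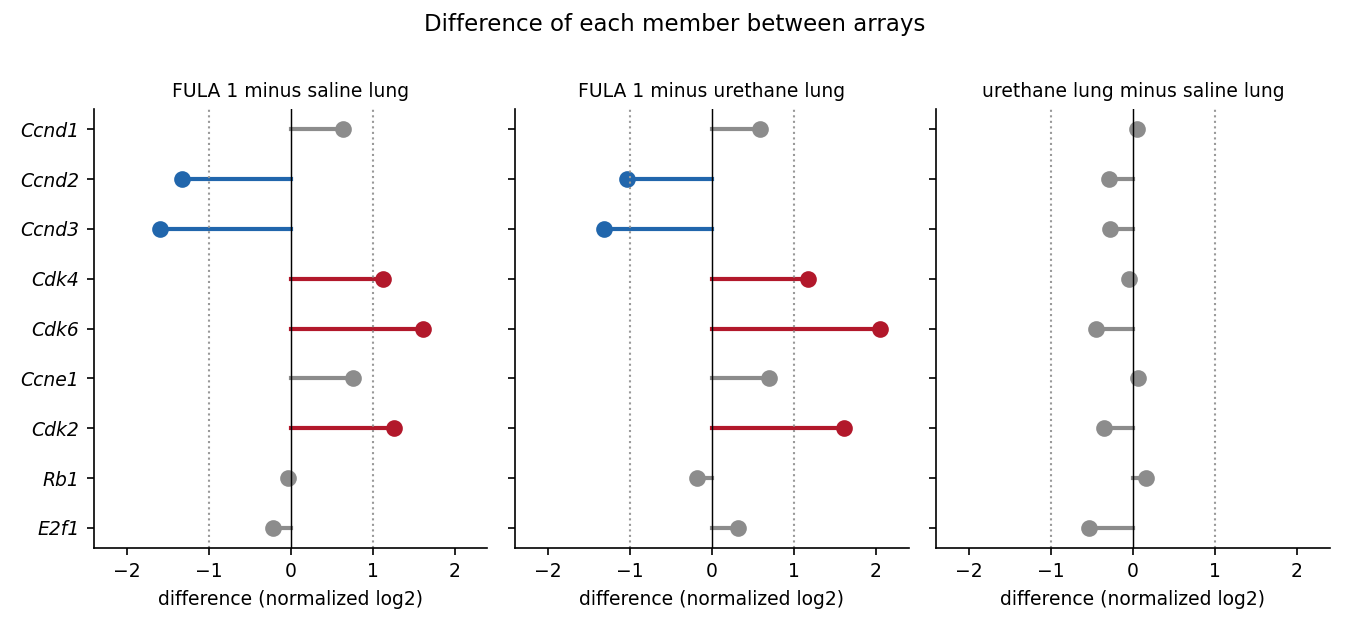
Difference in normalized log2 value of each measured member for FULA 1 minus saline lung, FULA 1 minus urethane lung and urethane lung minus saline lung; dotted lines mark 2-fold, red points are called higher, blue points lower and grey points neither. With this normalization Cdk6 lies farthest right in both FULA 1 panels (1.61 and 2.05), Ccnd3 farthest left (-1.59 and -1.31), and no point passes a dotted line between the lungs.

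Ccne1, which encodes cyclin E1, was at 3.05 in FULA 1, 2.35 in the urethane lung and 2.29 in the saline lung. It was above the background mark on FULA 1 and below it on both lungs, with ranks of 70.7 in FULA 1, 57.1 in the urethane lung and 55.7 in the saline lung. With the mark in place of the lung values, it was higher in FULA 1 by at least 0.58 (saline lung) and 0.60 (urethane lung) on the log2 scale, under the 2-fold rule. It passed that rule with the distribution of FULA 1 (1.25 and 1.15) and with a common median (1.49 and 1.45). The probe set shared by Ccne2, the other E-type cyclin, and Ints8, a subunit of the Integrator complex, read 5.15 in FULA 1, 2.43 in the urethane lung and 2.75 in the saline lung. The differences of 2.41 and 2.73 cannot be divided between these genes, and the urethane value lay below the mark.

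E2f1, the transcription factor released from Rb1, was at 3.61 in FULA 1, 3.29 in the urethane lung and 3.83 in the saline lung. FULA 1 lay between the lungs, with differences of -0.22 from the saline lung and 0.32 from the urethane lung, neither called. With a common median these differences were past 2-fold, at 1.23 and 1.58, where the median gene differed by 1.07 and 1.14. Rb1, the retinoblastoma gene, rested on 2 probe sets of its own that did not agree in level. The brighter read 5.74 in FULA 1, 6.04 in the urethane lung and 5.53 in the saline lung. The dimmer read 0.79, 0.86 and 1.06 on the same arrays, below the mark on each. Their mean differed by -0.03 from the saline lung and -0.18 from the urethane lung, and the brighter alone by 0.21 and -0.30, and neither was called. After the lowess step the mean was past 2-fold lower in FULA 1, at -1.498 from the saline lung and -1.46 from the urethane lung. That mean includes the dimmer probe set, and the lowess step was not run on the brighter alone, so a lower level of Rb1 RNA is not shown.

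Most members stayed on the same side of the median gene of each comparison, though their order changed with the scaling. Across 4 scalings (quantiles of the array mean, quantiles of FULA 1, a common median and lowess), Cdk2, Cdk4, Cdk6 and Ccne1 lay above the median gene in all 4 in both FULA 1 comparisons, and Ccnd2, Ccnd3 and Rb1 lay below it in all 4. Both quantile scalings follow the ranks within arrays, so for a gene with 1 probe set their differences have the same sign by construction. From the saline lung, Cdk6 ranged from 1.42 to 2.01 above the median gene and Cdk4 from 0.40 to 1.11, while Ccnd2 ranged from -1.38 to -1.16. The range of Rb1, -1.33 to -0.05, was wide, and these values are of the mean of its 2 probe sets. With quantiles of the array mean, the brighter alone differed by 0.21 from the saline lung, where the median gene differed by 0.02. From the urethane lung the brighter alone differed by -0.30, where the median gene differed by 0.07. Ccnd1 lay above the median gene in 3 of 4 scalings in each comparison. E2f1 lay above it in 1 of 4 from the saline lung and in 4 of 4 from the urethane lung.

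**Figure D3:**
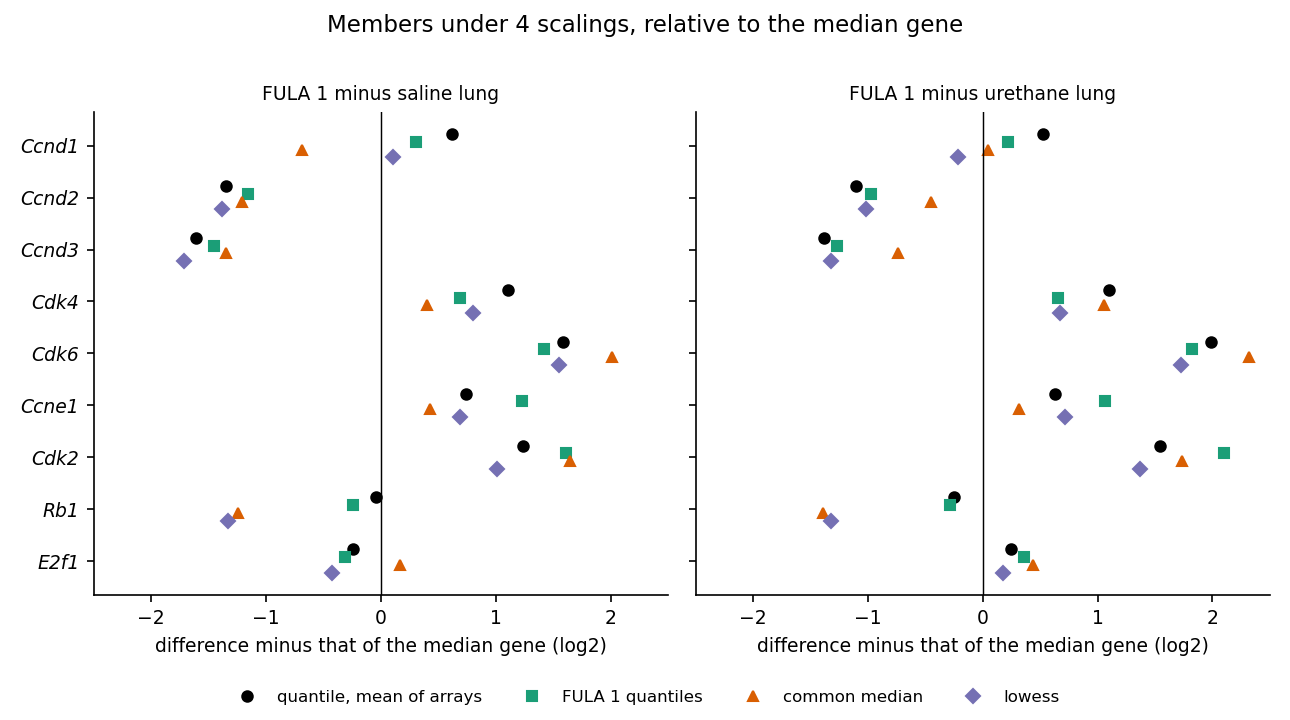
Difference of each member minus that of the median gene (log2), for FULA 1 minus saline lung and FULA 1 minus urethane lung, with one symbol per scaling of the same arrays. Cdk2, Cdk4, Cdk6 and Ccne1 stay right of 0 and Ccnd2, Ccnd3 and Rb1 left of 0 under the 4 scalings, while Ccnd1 and, from the saline lung, E2f1 cross it. Rb1 is the mean of its 2 probe sets, of which the dimmer lay below the mark on each array.

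In the urethane lung 0 of 9 members were called higher than in the saline lung, against 3.27% of 12519 genes, and 0 were called lower, against 1.31%. E2f1 differed by -0.54 (3.29 in the urethane lung, 3.83 in the saline lung), Cdk6 by -0.45 and Cdk2 by -0.35. Ccnd2 differed by -0.30, Ccnd3 by -0.28, Cdk4 by -0.04 and Ccnd1 by 0.05. With a common median the order was another, with Ccnd2 at -0.83, Ccnd1 at -0.80, Cdk4 at -0.73, Ccnd3 at -0.69 and E2f1 at -0.35. Over all genes that reached the floor, the median absolute difference between the lungs was 0.31 and the 90th percentile 0.80, so all 8 members that reached the floor lay inside the range of most genes. No size is given for Ccne1, whose lung values were both under the mark.

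The other genes of the pathway were taken from 7 lists, whose counts stand beside the shares over all genes given above (against the saline lung 22.6% higher and 22.0% lower, against the urethane lung 22.1% and 19.5%). In the list of S-phase genes that E2F factors are known to control, 17 of 21 measured genes were higher in FULA 1 than in the saline lung and 0 lower, and 18 of 21 were higher than in the urethane lung. The median difference was 1.70 from the saline lung, beside 0.02 over all genes that reached the floor, and 1.85 from the urethane lung, beside 0.07. Relative to the median gene, the list's median from the saline lung lay between 1.40 and 2.03 over the 4 scalings. Of the 17 genes, Mcm3, Rrm2, Cdc45, Pola1, Chaf1a and Gins1 lay below the mark on the saline lung. With the mark in place of that value, Rrm2 was higher by at least 0.59, under the 2-fold rule, and the others stayed past it. From the urethane lung the bound of Rrm2 was 0.61. Rrm1, a subunit of ribonucleotide reductase, was at 6.95 in FULA 1, 3.66 in the urethane lung and 3.79 in the saline lung. Mcm7, part of the replicative helicase, was at 5.93 in FULA 1, 3.21 in the urethane lung and 2.97 in the saline lung. At the low end, Tyms, which makes thymidylate, differed by -0.15 and Mybl2, a transcription factor of the late cycle, by 0.08 from the saline lung. The Mybl2 value is a mean of 2 probe sets, and its mean percentile rank went the other way (61.7 in FULA 1, 63.9 in the saline lung).

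**Figure D4:**
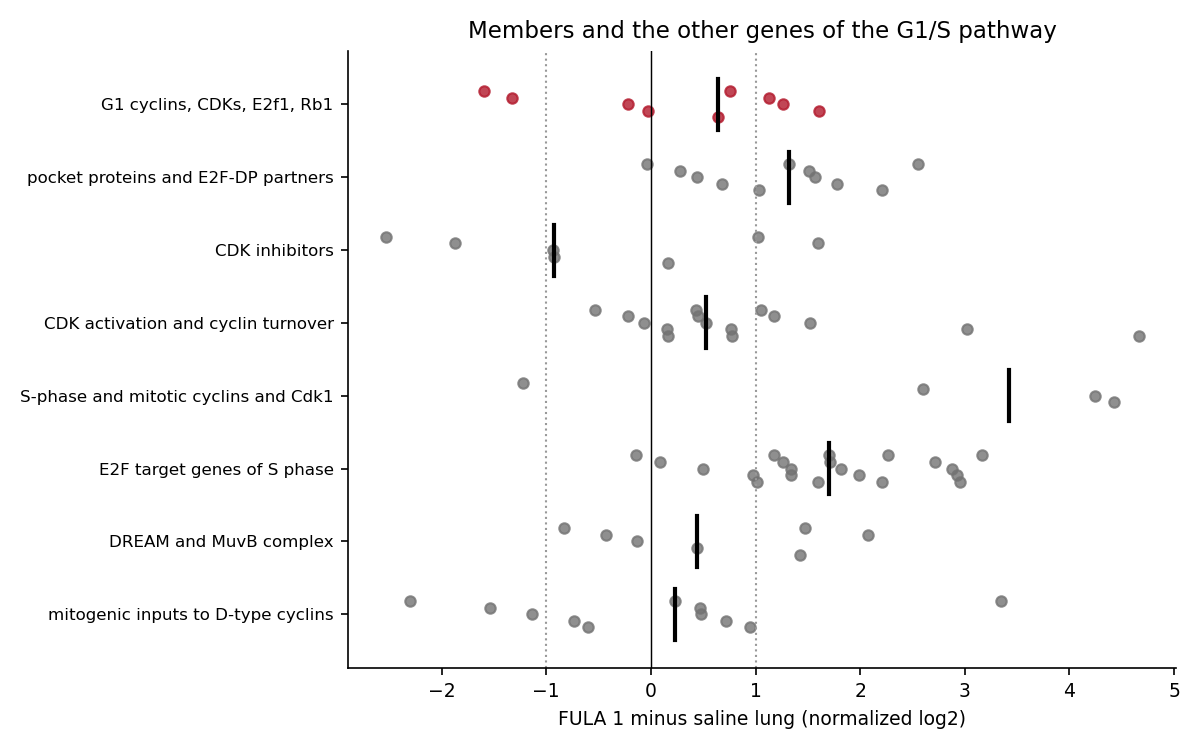
FULA 1 minus saline lung (normalized log2) for the measured members (red) and for the genes of 7 pathway lists (grey); each point is 1 gene, the black bar is the median of its row and dotted lines mark 2-fold. The S-phase and mitotic cyclins and the E2F target genes lie mostly right of the upper dotted line (medians 3.42 and 1.70), and the CDK inhibitors spread on both sides of 0.

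Of the S-phase and mitotic cyclins and Cdk1, 4 were measured, and 3 were higher and 1 lower in FULA 1 than in each lung (medians 3.42 from the saline lung and 3.38 from the urethane lung). Ccna2, cyclin A2, was at 5.93 in FULA 1, 2.08 in the urethane lung and 1.505 in the saline lung, higher by at least 3.47 with the mark as the saline value. Ccnb2, a mitotic cyclin, differed by 4.25 from the saline lung and Cdk1, the mitotic kinase, by 2.60. Ccna1, a cyclin known mainly from the male germ line, lay below the mark in FULA 1 and was lower by at least 0.72 with the mark in its place, though its difference of -1.23 passed the rule. Mki67, a general marker of dividing cells, was at 6.66 in FULA 1, 3.01 in the urethane lung and 3.56 in the saline lung; its part in these differences was not tested.

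Of 11 relatives and partners of Rb1 and E2f1, 7 were higher in FULA 1 than in the saline lung and 6 than in the urethane lung, and 0 were lower in either (medians 1.32 and 1.06). Rbl1, which encodes the pocket protein p107, was at 5.32 in FULA 1, 3.21 in the urethane lung and 3.12 in the saline lung. E2f8, an E2F factor that represses, differed by 2.55 from the saline lung. E2f2 differed by 0.28 and Tfdp2, a DP partner of the E2F factors, by -0.03. E2f6, a repressor that does not bind Rb1, was the only gene of these 7 lists called between the lungs. It was at 4.72 in FULA 1, 4.90 in the urethane lung and 3.40 in the saline lung, and the urethane minus saline difference of 1.499 rests on 1 probe set. Its deposited value on the urethane lung was also that of Cdk1, so that value is tied and coarse. Relative to the median gene the urethane minus saline difference of E2f6 was 1.42 to 1.84 over the 4 scalings.

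Of 15 genes that activate CDKs or turn cyclins over, 5 were higher in FULA 1 than in the saline lung and 6 than in the urethane lung, and 0 were lower (medians 0.53 and 0.71). The counts of called-higher genes exceed the all-gene shares by few genes in a list of this size. Cks2, a small subunit that binds CDKs, differed by 4.66 from the saline lung and Skp2, which targets p27 for destruction, by at least 3.005. Gsk3b, a kinase that marks cyclin D1 for degradation, differed by -0.54, and Fbxw7, which targets cyclin E, by -0.22. Of the 7 genes of the DREAM and MuvB complexes, which repress or activate cell cycle genes, 3 were higher and 0 lower in FULA 1 than in each lung (medians 0.44 and 0.53), where the all-gene shares were 22.6% and 22.1% higher. Foxm1, a transcription factor of the late cycle that works with MuvB, was higher by at least 1.97 than in the saline lung and Lin9 by 1.47. Lin52 differed by -0.83 and Lin37 by -0.43.

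Of 7 CDK inhibitor genes, 2 were higher and 2 lower in FULA 1 than in each lung (medians -0.92 and -0.59), close to the shares of all genes. Cdkn1a, which encodes p21, was at 4.53 in FULA 1, 7.32 in the urethane lung and 7.06 in the saline lung, and Cdkn1c, which encodes p57, differed by -1.87 from the saline lung. Cdkn2a was higher than in the saline lung by at least 1.504 and Cdkn1b, which encodes p27, by 1.02. Of 11 measured genes of mitogenic inputs, against the saline lung 1 was higher and 3 were lower in FULA 1 (median 0.23). Myc differed by 3.34 and Etv4, an ETS factor, by 0.95, against -2.30 for Jun, an AP-1 subunit, and -1.54 for Stat3.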

How the data were processed

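Biotin-labelled total RNA was hybridized to 3 arrays, per the labels' protocols. The deposited values are log2 signals of 41345 probe sets; the submitters' processing notes name RMA (robust multi-array average), and the series' design text names GeneSpring GX 12.5. The background setting, the build and which arrays were normalized jointly were not given in the sources used here. Array number limits precision.

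Columns were quantile-normalized, each probe set taking the mean of the 3 arrays' values at its rank, and ties their mean rank. Probe sets with 1 symbol (23521; 1814 had several) were named through the platform annotation and updated by Entrez identifier through RefSeq (23328 matched), and averaged per gene. Promoter windows are from RefSeq, GRCm38.p6. Differences were called at 2-fold past a floor, the 50th percentile of gene values. No test was run, as each group had 1 array. The calling script was tested on simulated data in which few probe sets differed between arrays. Many genes differed here, so that test does not show whether the calls hold for these arrays. Named genes were all members, the 2 highest and 2 lowest of each pathway list past the floor from the saline lung, any list gene called between the lungs, the 3 genes nearest in pattern to a member, and cell type markers. Members and lists were chosen with earlier results of these data known. Alternatives covered scaling, floor, threshold, background and probe set choice. Python 3.11.15, numpy 2.4.6, pandas 2.3.3, scipy 1.17.1 and statsmodels 0.14.6 were used.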

Additional observations from a re-analysis of the deposited data

How the results depend on the processing

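With 1 array per group no replicate could be left out, and no paired analysis was possible because the groups share no numbered replicates. The members' counts held with no floor, a floor at the 75th percentile, values held at the background mark, or the brightest probe set of a gene. Each called member had 1 probe set, lay above the mark on every array and had passed the floor. Dropping the floor, holding values at the mark or taking the brightest probe set could therefore not change their calls. Ranks within arrays gave the same sign for all called members. This is so by construction, as each has 1 probe set and quantile normalization follows the ranks. In the values as deposited, where the median gene differed by 5.95 from the saline lung and 4.88 from the urethane lung, 9 members were higher and 0 lower than in either lung, Ccnd2, Ccnd3, E2f1 and Rb1 turned to 4.75, 4.602, 6.12 and 4.71 from the saline lung, and Ccnd2, Ccnd3 and Rb1 to 4.43, 4.15 and 3.49 from the urethane lung. With a common median, where the median gene differed by 1.07 from the saline lung and 1.14 from the urethane lung, 5 members were higher than in the saline lung and 6 than in the urethane lung, 0 lower in either; E2f1 turned to 1.23 from the saline lung, and Ccnd2 and Ccnd3 to 0.69 and 0.40 from the urethane lung. Lowess left 1 member higher than in the saline lung and 2 than in the urethane lung, and 3 lower in each. Rb1, as the mean of its 2 probe sets, was added to Ccnd2 and Ccnd3. FULA 1 quantiles left 3 higher than in each lung, with Ccne1 in place of Cdk4, and 2 lower than in the saline lung but 1 than in the urethane lung. At 1.5-fold 5 members were higher than in each lung. At 4-fold 0 were higher than in the saline lung, 1 than in the urethane lung and 0 lower in either. Between the lungs, the deposited values gave 1 member higher, Rb1 at 1.22. Over all genes, FULA 1 minus saline lung gave 3073 higher and 2994 lower, which became 21703 and 20 as deposited, 7058 and 1785 with a common median, 852 and 767 at 4-fold, with 1720 lower at the 75th percentile floor and 4579 lower at 1.5-fold. FULA 1 minus urethane lung gave 2930 and 2581, which became 21603 and 22 as deposited, 7154 and 1558 with a common median, 4512 and 4102 at 1.5-fold, 774 and 678 at 4-fold, with 1532 lower at the 75th percentile floor. Urethane lung minus saline lung gave 409 and 164, which became 5180 and 0 as deposited, 979 and 897 with FULA 1 quantiles, 233 and 35 with lowess, 213 and 79 at the 75th percentile floor, 1373 and 1340 at 1.5-fold, 17 and 1 at 4-fold, 254 and 95 held at the mark, with 215 higher with a common median. Apart from what a threshold or floor does by construction, the cause was not tested.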

Other observations

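The genes nearest to a member in pattern were found by Euclidean distance of the normalized log2 values over the 3 arrays, which few points make a loose measure. Nearest to Ccnd1 was Ctnnb1, which encodes beta-catenin, at 8.79 in FULA 1, 8.39 in the urethane lung and 8.32 in the saline lung (distance 0.24). Nearest to Cdk6 was Nmt2, an N-myristoyltransferase, at a distance of 0.11, and Smc3, a cohesin subunit, was next but one at 0.18. Nearest to Cdk4 was Hsp90b1, a chaperone of the endoplasmic reticulum, at 0.19. Nearest to Ccnd3 was Cfl1, which encodes cofilin, at 0.15, and nearest to Ccnd2 was Dgka, a diacylglycerol kinase, at 0.21.

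The shared probe sets of Rb1 and Lpar6, a receptor for lysophosphatidic acid, read 4.18 in FULA 1, 3.49 in the urethane lung and 3.70 in the saline lung for one, and 2.70, 2.62 and 2.59 on the same arrays for the other. Some lung values of the members were tied: the Ccnd3 value of the urethane lung was shared by 25 probe sets as deposited, and that of the brighter Rb1 probe set by 24.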
